A study of Mus musculus with 12 samples.

Results

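Cytosolic heat shock proteins, their co-chaperones and the chaperonins were followed across the liver arrays of a study of CDDO-Im, an imidazolide of a synthetic oleanane triterpenoid known as an activator of the transcription factor Nrf2. A list of 38 genes was used, and a gene was kept where the array annotation gave at least 1 probe set naming it as the only gene. This left 35 genes of the 18193 tested, each read from its brightest single-gene probe set. Hsp90ab1, Ptges3 and Hsf1 had no such probe set and were not analysed here. The list is not purely cytosolic, since the products of Hspa9, Hspd1 and Hspe1 work in mitochondria.

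The 12 arrays made 4 groups of 3: Nrf2 null mice given CDDO-Im, Nrf2 null mice given vehicle, wild type mice given CDDO-Im and wild type mice given vehicle. All livers came from male mice treated by gavage, with a labelled dose of 30 uM/kg for CDDO-Im and 0 uM/kg for vehicle and a labelled time of 6 hours. Every vehicle title, and no CDDO-Im title, ends in an unexplained (2), whose meaning cannot be told apart from the compound. Strain, age and the construction of the null allele are not given in the sources used here, and the labels do not say that each array is a separate animal, so the p-values cover only the spread among these arrays, which may be technical.

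Heat shock proteins are molecular chaperones that keep other proteins folded or refold them after stress. HSP70 proteins bind unfolded stretches in an ATP cycle that J proteins start and nucleotide exchange factors end, and they pass clients on to HSP90, which holds kinases and steroid receptors. The chaperonin CCT, also called TRiC, is a ring of related subunits that folds actin and tubulin, and small heat shock proteins hold unfolding clients without ATP. Many of these genes are switched on by heat shock factor 1, HSF1, which binds repeated GAA units in their promoters, and hepatocytes, with their heavy load of protein synthesis, express most of them without stress.

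The genotype and the compound read as labelled. Nfe2l2, which encodes Nrf2, differed by -3.835 on the log2 scale between Nrf2 null and wild type livers under CDDO-Im (adjusted p = 2.73e-07 from limma), and Nqo1, a quinone reductase and textbook Nrf2 target, differed by 0.04 between CDDO-Im and vehicle in Nrf2 null livers but by 2.07 in wild type livers (adjusted p = 7.28e-08). Hepatocyte markers were bright on every array, at up to 14.5 log2 units, although 1 of 8, Ass1, lay below the array median on all arrays. Pancreatic acinar markers, 13 measured of 18 listed, set 2 arrays apart. Their summed linear intensity was 1574 to 1696 in Nrf2 null CDDO-Im livers and 1452 to 6672 in Nrf2 null vehicle livers, where replicate 2 was the high array. It was 1233 to 1403 in wild type CDDO-Im livers and 1236, 1266 and 19487 in wild type vehicle livers, where replicate 3 was the high array. In bulk tissue, fewer cells of a type and less RNA per cell cannot be told apart.

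Wild type vehicle replicate 3 also stood apart for the chaperones themselves. It lay above both other wild type vehicle arrays for 27 of the 35 genes, or 77.1%, against 42.9% of all genes. Its median gap over the mean of those arrays was 0.31 log2 units for the 35 genes, against 0.02 for all genes. All 8 CCT genes and 6 of 8 HSP70 family genes were highest there. All 13 acinar markers were above the other wild type vehicle arrays on it, all 15 chaperones of the endoplasmic reticulum were below them, and so were all 8 Kupffer cell markers; their part in the results was not tested. Fitted differences and calls that use this array are therefore given with it and without it.

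The mRNA of part of the chaperone system was higher with CDDO-Im in both genotypes. In Nrf2 null livers 7 of 35 genes rose, or 20%, where 3.58% of all genes tested were called higher: Hsph1, Dnaja1, St13, Hspa8, Cct4, Dnajb6 and Cct8. Of the same 35, 6 rose in wild type livers, or 17.1%, where 0.978% of all genes were called higher: Hsph1, Chordc1, Dnajb1, Stip1, Cct6a and St13. A gene is called here at an adjusted p under 0.05 from limma's moderated test, adjusted by Benjamini-Hochberg over all genes, and the calls in both genotypes were all in the upward direction. Most of the 35 genes are bright, so the shares of all genes, which include dim ones, are a low background. In a fit of the brighter 9097 genes alone, 8.24% were called higher in Nrf2 null livers and 2.15% in wild type livers. The lists shared Hsph1 and St13, which is 28.6% of the calls in Nrf2 null livers and 33.3% of those in wild type livers, and 24 genes were called in neither.

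Most of the 35 differences were above 0 in both genotypes. The median log2 difference, CDDO-Im minus vehicle, was 0.29 for the 35 genes in Nrf2 null livers, against -0.01 for all genes, and it was above 0 for 27 of 35. In wild type livers the median was 0.39, against 0.01 for all genes, with 30 of 35 above 0. Kupffer cell markers ran the same way, with a median of 0.41 and 7 of 8 above 0 in Nrf2 null livers and a median of 0.24 and 8 of 8 above 0 in wild type livers, or 0.13 and 6 of 8 without wild type vehicle replicate 3. Their summed linear intensity was 3968 to 4234 in CDDO-Im and 2107 to 3869 in vehicle livers of the Nrf2 null, and 4086 to 6020 in CDDO-Im and 2897 to 5934 in vehicle livers of the wild type. None of the 8 was called or lay below the array median on all arrays, and their part in the chaperone differences was not tested. All 3 CDDO-Im arrays lay above all 3 vehicle arrays for 18 genes in Nrf2 null livers, where 11.6% of all genes did so, and for 18 genes in wild type livers, where 8.42% did.

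Without wild type vehicle replicate 3, the wild type comparison called 20 of 35 genes higher, 57.1% of them, where 2.77% of all genes were called higher, and the median difference was 0.55, against 0.01 for all genes. Through the shared estimate of spread, the same change raised the Nrf2 null count to 12 of 35, or 34.3%, where 4.95% of all genes were called higher, with the differences themselves unaltered. Other arrays took calls away. Leaving out Nrf2 null CDDO-Im replicate 3 left 1 call in Nrf2 null livers, where 0.308% of all genes were then called higher. Leaving out Nrf2 null CDDO-Im replicate 2, Nrf2 null vehicle replicate 1 or Nrf2 null vehicle replicate 2 left 3 each, where the shares of all genes were 1.03%, 0.77% and 1.25%. In wild type livers limma left 0 calls without wild type vehicle replicate 1, where 0.396% of all genes were called higher. It left 1 without wild type vehicle replicate 2 or wild type CDDO-Im replicate 2 and 2 without wild type CDDO-Im replicate 3, where the shares of all genes were 0.451%, 0.456% and 0.61%. None of the 6 wild type calls was kept in all 12 of these fits: Stip1 and Chordc1 lost theirs in 2, Dnajb1 in 4, Cct6a in 5, St13 in 7 and Hsph1 in 9. In Nrf2 null livers St13 lost its call in 0, Dnaja1 and Cct4 in 1, Dnajb6 and Cct8 in 4, Hsph1 in 6 and Hspa8 in 9.

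**Figure D1:**
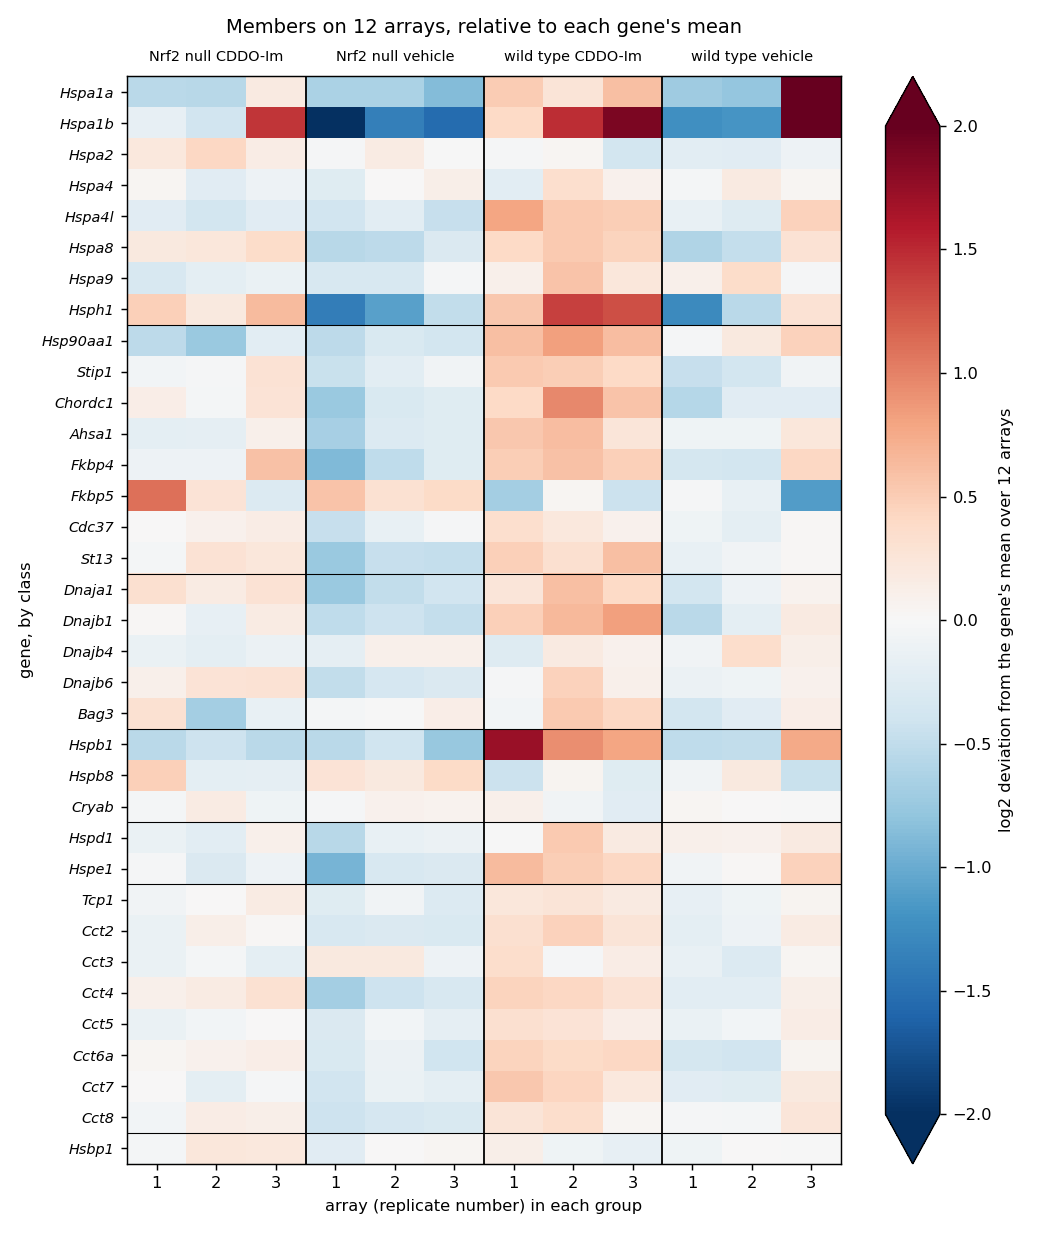
Log2 deviation of each of the 35 genes from its own mean over 12 arrays, by array (columns, 3 per group) and by class (rows), with colours limited to 2 log2 units either way. Wild type CDDO-Im arrays are mostly red, with 27 to 32 genes above their mean, and vehicle arrays other than wild type vehicle replicate 3 mostly blue, while Nrf2 null CDDO-Im arrays are mixed, with 15 to 21 above. Wild type vehicle replicate 3 is redder than its group for 27 of 35 genes.

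Within the HSP70 family, Hsph1 and Hspa8 carried the calls. Hsph1 encodes HSP105, a large HSP110-type protein that works as a nucleotide exchange factor for HSP70. Its log2 intensity was 9.24, 8.96 and 9.39 in Nrf2 null CDDO-Im livers, against 7.38, 7.67 and 8.27 in Nrf2 null vehicle livers. Wild type CDDO-Im livers read 9.31, 10.13 and 10.05, against 7.5, 8.23 and 9.05 in wild type vehicle livers. The arrays of the groups do not overlap in either genotype, and vehicle replicate 3 is the highest vehicle array in both. The log2 difference was 1.42 ± 0.35 in Nrf2 null livers (SE, n = 3 each, 2.68-fold, adjusted p = 0.0377) and 1.57 ± 0.35 in wild type livers (2.97-fold, adjusted p = 0.0474). The wild type difference was 1.97 without wild type vehicle replicate 3 (adjusted p = 0.00163).

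The Hsph1 promoter is shown because it holds the letters of a heat shock element near the start of the gene that had the largest called difference in either genotype. The element was searched as 3 alternating units of GAA and its reverse complement TTC, with 2 bases of any kind between units, on both strands, in windows of 250 bases before to 50 bases after each annotated start (RefSeq, GRCm38.p6). The window of Hsph1 lies at chr5:149636266-149636565 on the minus strand, and the capitals mark the element, which covers bases 16 to 28 counted from the start as base 1.
Hsph1: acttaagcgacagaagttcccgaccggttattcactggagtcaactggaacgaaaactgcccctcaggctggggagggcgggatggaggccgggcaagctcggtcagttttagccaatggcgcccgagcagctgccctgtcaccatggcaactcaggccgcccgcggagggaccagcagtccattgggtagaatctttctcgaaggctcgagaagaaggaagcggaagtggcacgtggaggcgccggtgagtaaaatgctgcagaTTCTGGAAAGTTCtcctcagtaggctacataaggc
A 3-unit element was found in windows of 5 of the 29 genes that had one, namely Chordc1, Dnajb6, Hspd1, Hspe1 and Hsph1. That is 7 of 38 windows, or 18.4%, since some genes have more than 1 annotated start, against 0.603% of 32851 windows of all genes. The 7 windows cover 4 places in the genome, since both windows of Hsph1 hold one element, both of Dnajb6 hold another, and Hspd1 and Hspe1 share theirs on opposite strands, so this share counts some letters more than once. The shorter form of 2 units, GAANNTTC or TTCNNGAA, which every 3-unit element contains, was found in windows of 17 genes. It was in 50% of the 38 windows of the 29 genes and in 15.1% of all windows. The core of the antioxidant response element that Nrf2 binds, TGACNNNGC on either strand, was found for 5 genes, namely Cct2, Cct6a, Dnajb1, Hsph1 and Tcp1. It was in 15.8% of the 38 windows of the 29 genes, against 12.4% of all windows. These are matches of letters, and binding was not measured.

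Hspa8 encodes the constitutive HSP70 of the cytosol, Hsc70. It read 12.07, 12.09 and 12.24 in Nrf2 null CDDO-Im livers, against 11.32, 11.35 and 11.58 in Nrf2 null vehicle livers. Wild type arrays read 12.27, 12.39 and 12.32 with CDDO-Im, against 11.26, 11.39 and 12.16 with vehicle. Again the groups do not overlap, and the third wild type vehicle array sits just under the CDDO-Im arrays. The difference of 0.72 ± 0.18 in Nrf2 null livers passed the test (1.64-fold, adjusted p = 0.0417), whereas one of 0.72 ± 0.18 in wild type livers did not (1.65-fold, adjusted p = 0.0737). Once wild type vehicle replicate 3 was left out, the wild type difference was 1.003 (2-fold, adjusted p = 5.71e-05).

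Hspa1a and Hspa1b encode the stress-inducible HSP70 proteins. They are near-identical neighbours, so their probe sets may share signal. Hspa1b read 8.59, 8.37 and 10.18 in Nrf2 null CDDO-Im livers, against 6.75, 7.38 and 7.22 in Nrf2 null vehicle livers. Wild type CDDO-Im livers read 9.15, 10.24 and 10.63, against 7.53, 7.58 and 11.45 in wild type vehicle livers. The groups do not overlap in the Nrf2 null, but in wild type the third vehicle array is the highest of all 12. With all arrays, neither the difference of 1.93 ± 0.87 in Nrf2 null livers (3.82-fold, adjusted p = 0.25) nor that of 1.15 ± 0.87 in wild type livers (2.22-fold, adjusted p = 0.66) passed the test. Both did without wild type vehicle replicate 3, at 1.93 in Nrf2 null livers (adjusted p = 0.0183) and 2.45 in wild type livers (5.47-fold, adjusted p = 0.00939).

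Its window, at chr17:34959189-34959488 on the minus strand, is shown because this gene had the largest difference of the 35 once that array was left out. No 3-unit element was found in this window, and the capitals mark its single 2-unit match. The search took exact units only, so an element with a mismatched unit would be missed here and in other windows.
Hspa1b: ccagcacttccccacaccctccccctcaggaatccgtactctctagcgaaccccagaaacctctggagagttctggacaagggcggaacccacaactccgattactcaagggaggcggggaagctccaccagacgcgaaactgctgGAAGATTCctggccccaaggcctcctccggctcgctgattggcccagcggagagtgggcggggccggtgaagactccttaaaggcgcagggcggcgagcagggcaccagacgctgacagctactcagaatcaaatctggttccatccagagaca

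Hspa1a was dim, below the array median on 11 of 12 arrays. It read 4.42, 4.41 and 5.15 in Nrf2 null CDDO-Im livers and 4.32, 4.32 and 4.09 in Nrf2 null vehicle livers. It read 5.46, 5.22 and 5.56 in wild type CDDO-Im livers and 4.25, 4.18 and 8.13 in wild type vehicle livers. The same vehicle array is high, by 3.91 log2 units over the mean of the other two wild type vehicle arrays. The wild type difference was -0.11 ± 0.78 with all arrays (adjusted p = 0.979) and 1.199 without that array (2.30-fold, adjusted p = 0.00233). In Nrf2 null livers it was 0.41 ± 0.78 (adjusted p = 0.845).

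The other HSP70 relatives were mixed. Hspa4l, an HSP110-type exchange factor like Hsph1, read 6.51, 6.36 and 6.51 in Nrf2 null CDDO-Im livers, against 6.35, 6.52 and 6.28 in Nrf2 null vehicle livers. It read 7.51, 7.26 and 7.22 in wild type CDDO-Im livers, against 6.58, 6.48 and 7.20 in wild type vehicle livers. The Nrf2 null groups overlap and the wild type groups do not, though the third wild type vehicle array comes within a narrow margin. The difference was 0.08 ± 0.16 in Nrf2 null livers (adjusted p = 0.857) and 0.58 ± 0.16 in wild type livers (adjusted p = 0.0964). Leaving out wild type vehicle replicate 3 gave a wild type difference of 0.80 (adjusted p = 0.000689). Hspa4, the third exchange factor, differed by -0.05 in Nrf2 null and by 0.00 in wild type livers, or -0.01 in wild type without that array. Hspa2, a form best known from the testis, differed by 0.22 in Nrf2 null and 0.06 in wild type livers, or 0.10 in wild type without it. Hspa9, the mitochondrial HSP70 mortalin, differed by 0.00 in Nrf2 null and 0.15 in wild type livers, or 0.06 in wild type without it. None of these 3 passed the test in either genotype, with or without that array.

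**Figure D2:**
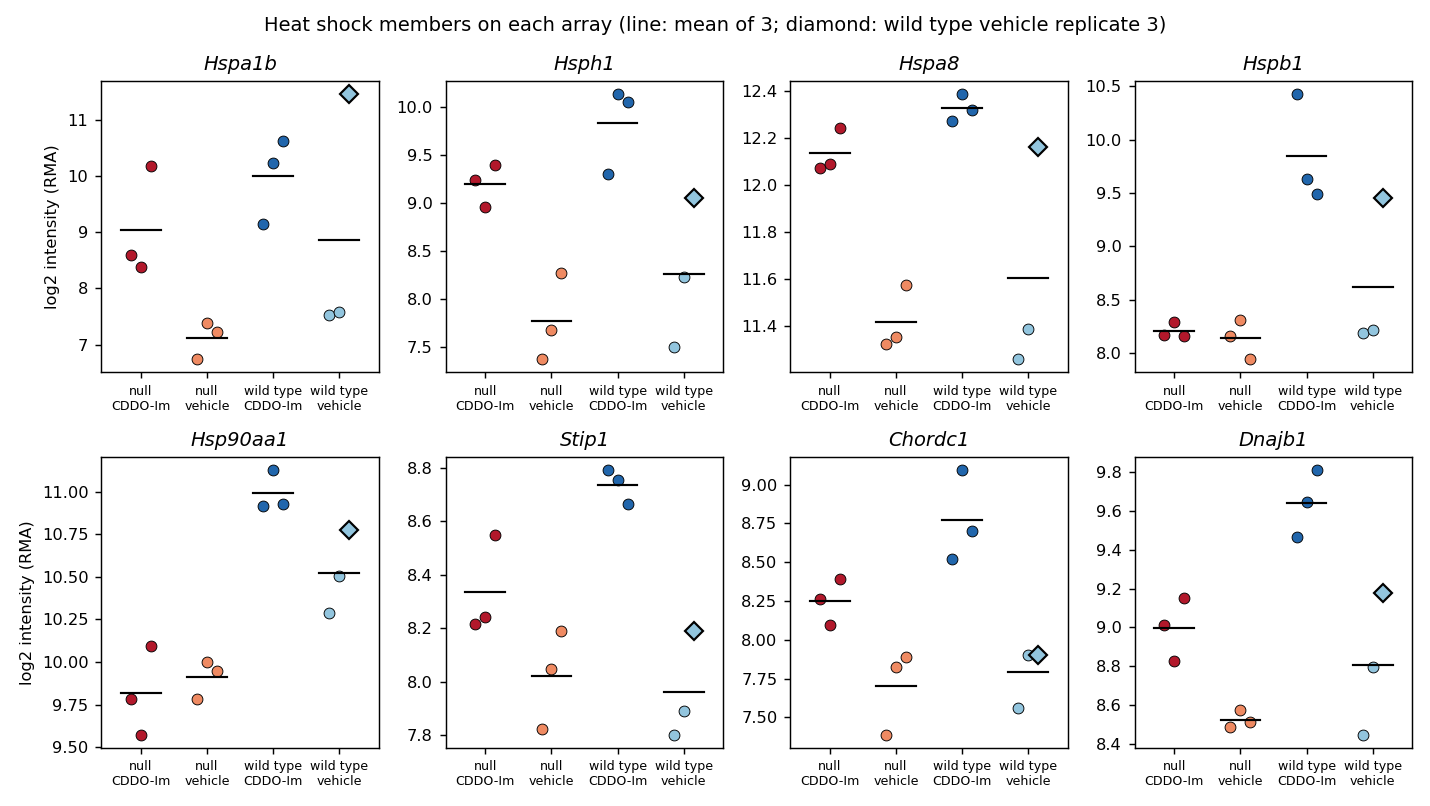
Log2 intensity of 8 genes on each array (points), with the mean of 3 arrays as a line and wild type vehicle replicate 3 as a diamond. Hspa1b on that array, at 11.45, is above every CDDO-Im array, whereas Stip1, Chordc1 and Dnajb1 keep all CDDO-Im arrays above all vehicle arrays in both genotypes.

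HSP90 itself and its co-chaperones behaved differently from each other. Hsp90aa1 encodes the inducible cytosolic HSP90. It read 9.78, 9.57 and 10.09 in Nrf2 null CDDO-Im livers, against 9.78, 10 and 9.95 in Nrf2 null vehicle livers. Wild type livers read 10.92, 11.13 and 10.93 with CDDO-Im, against 10.29, 10.51 and 10.78 with vehicle. The Nrf2 null groups overlap, while the wild type CDDO-Im arrays are all above the wild type vehicle arrays. The difference was -0.09 ± 0.14 in Nrf2 null livers (adjusted p = 0.801). The wild type difference was 0.47 ± 0.14 (adjusted p = 0.138), or 0.59 without wild type vehicle replicate 3 (adjusted p = 0.023).

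Of the co-chaperones, 3 rose in wild type livers and 1 in Nrf2 null livers. With Hsp90aa1 this class holds 8 genes, so the shares called were 37.5% and 12.5%. Of all genes, 0.978% were called higher in wild type and 3.58% in Nrf2 null livers. Stip1 encodes HOP, the adaptor that joins HSP70 to HSP90. It read 8.21, 8.24 and 8.55 in Nrf2 null CDDO-Im livers, against 7.82, 8.05 and 8.19 in Nrf2 null vehicle livers. It read 8.79, 8.75 and 8.66 in wild type CDDO-Im livers, against 7.80, 7.89 and 8.19 in wild type vehicle livers. The groups do not overlap in either genotype. The difference was 0.32 ± 0.13 in Nrf2 null livers (1.24-fold, adjusted p = 0.185) and 0.78 ± 0.13 in wild type livers (1.71-fold, adjusted p = 0.00929), the wild type value being 0.89 without wild type vehicle replicate 3 (adjusted p = 0.000838).

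St13 encodes HIP, which stabilises HSP70 on its client, and was called in both genotypes. It read 10.71, 11.04 and 10.97 in Nrf2 null CDDO-Im livers, against 10.001, 10.285 and 10.274 in Nrf2 null vehicle livers. Wild type livers read 11.22, 11.07 and 11.35 with CDDO-Im, against 10.60, 10.67 and 10.78 with vehicle. All CDDO-Im arrays exceed all vehicle arrays of the same genotype. The difference was 0.72 ± 0.11 in Nrf2 null livers (1.65-fold, adjusted p = 0.00867) and 0.53 ± 0.11 in wild type livers (1.44-fold, adjusted p = 0.036), where it was 0.58 without wild type vehicle replicate 3 (adjusted p = 0.0132). The Nrf2 null call was the only one of the 7 there that was kept whichever 1 of the 12 arrays was left out, with a highest adjusted p of 0.0472, whereas the wild type call was lost in 7 of those 12 fits, with a highest adjusted p of 0.183.

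Chordc1 encodes a CHORD-domain partner of HSP90. It read 8.27, 8.09 and 8.39 in Nrf2 null CDDO-Im livers, against 7.39, 7.83 and 7.89 in Nrf2 null vehicle livers. It read 8.52, 9.10 and 8.70 in wild type CDDO-Im livers, against 7.56, 7.91 and 7.90 in wild type vehicle livers. The groups are again apart in both genotypes, and here the third wild type vehicle array does not stand out. The difference was 0.55 ± 0.17 in Nrf2 null livers (1.46-fold, adjusted p = 0.0789) and 0.98 ± 0.17 in wild type livers (1.98-fold, adjusted p = 0.0123), or 1.04 in wild type livers without that array (adjusted p = 0.00458).

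The Chordc1 window is shown because it holds 3 overlapping 3-unit elements, more than any other window of the 35 genes. It lies at chr9:18292017-18292316 on the plus strand, and the capitals, bases -4 to 19 counted from the start as base 1 with no base 0, mark the run.
Chordc1: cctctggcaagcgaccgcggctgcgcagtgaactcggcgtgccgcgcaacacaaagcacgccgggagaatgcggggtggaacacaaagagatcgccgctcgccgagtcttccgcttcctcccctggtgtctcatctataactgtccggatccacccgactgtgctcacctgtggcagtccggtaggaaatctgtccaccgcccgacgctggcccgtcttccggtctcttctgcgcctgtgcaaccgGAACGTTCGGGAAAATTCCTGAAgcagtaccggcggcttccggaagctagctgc

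The remaining HSP90 partners had smaller or more scattered differences. Fkbp4, an immunophilin of steroid receptor complexes, differed by 0.67 ± 0.24 in Nrf2 null livers (adjusted p = 0.13) and by 0.62 ± 0.24 in wild type livers (adjusted p = 0.246). Without wild type vehicle replicate 3 both passed, at 0.67 in Nrf2 null (adjusted p = 0.0431) and 0.88 in wild type livers (adjusted p = 0.0207). Ahsa1, which speeds the ATPase of HSP90, differed by 0.30 ± 0.14 in Nrf2 null and 0.44 ± 0.14 in wild type livers, the wild type value being 0.55 without that array (adjusted p = 0.0446). Cdc37, which brings kinases to HSP90, differed by 0.29 ± 0.11 in both genotypes, with adjusted p = 0.156 in Nrf2 null and 0.245 in wild type livers, and by 0.35 in wild type livers without that array (adjusted p = 0.13). Fkbp5, an immunophilin best known as a glucocorticoid target, stood apart from these. It read 10.98, 10.15 and 9.62 in Nrf2 null CDDO-Im livers and 10.46, 10.18 and 10.27 in Nrf2 null vehicle livers. It read 9.20, 9.93 and 9.46 in wild type CDDO-Im livers and 9.86, 9.73 and 8.77 in wild type vehicle livers. Its groups overlap in both genotypes. On wild type vehicle replicate 3 it lay 1.03 log2 units below the mean of the other two wild type vehicle arrays. Its difference was -0.06 ± 0.34 in Nrf2 null and 0.08 ± 0.34 in wild type livers, and the wild type value turned to -0.27 ± 0.31 without that array (adjusted p = 0.739).

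**Figure D3:**
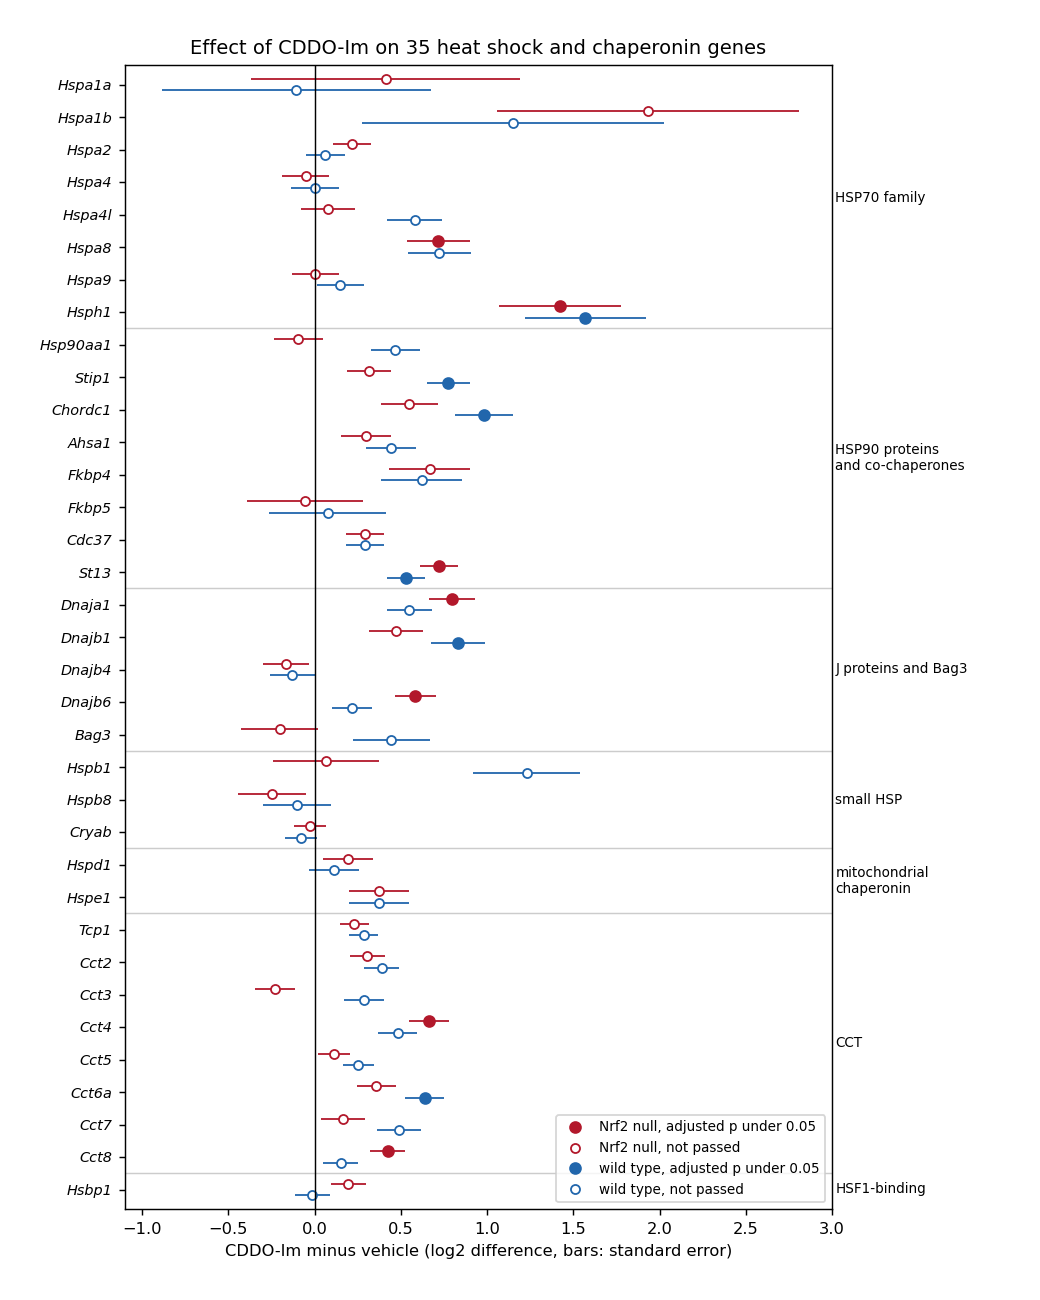
Log2 difference, CDDO-Im minus vehicle, with its standard error for each of the 35 genes in Nrf2 null (red) and wild type (blue) livers, by class. Filled points passed an adjusted p of 0.05, and all of them lie to the right of 0, from 0.43 for Cct8 in Nrf2 null to 1.57 for Hsph1 in wild type livers.

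Among the J proteins, which hand clients to HSP70 and start its ATP cycle, Dnaja1 and Dnajb6 rose in Nrf2 null livers and Dnajb1 in wild type livers. Dnaja1 read 10.85, 10.70 and 10.81 in Nrf2 null CDDO-Im livers, against 9.79, 10.03 and 10.15 in Nrf2 null vehicle livers. It read 10.77, 11.14 and 10.94 in wild type CDDO-Im livers, against 10.16, 10.44 and 10.60 in wild type vehicle livers. Both genotypes show no overlap between treatments, but the vehicle arrays start lower in the Nrf2 null. The difference was 0.80 ± 0.13 in Nrf2 null livers (1.74-fold, adjusted p = 0.0103) and 0.55 ± 0.13 in wild type livers (1.46-fold, adjusted p = 0.0589), and the wild type value was 0.65 without wild type vehicle replicate 3 (adjusted p = 0.0103).

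Dnajb1 encodes the classical stress-inducible HSP40. It read 9.01, 8.82 and 9.15 in Nrf2 null CDDO-Im livers, against 8.49, 8.57 and 8.51 in Nrf2 null vehicle livers. Wild type livers read 9.47, 9.64 and 9.81 with CDDO-Im, against 8.45, 8.80 and 9.18 with vehicle. Every CDDO-Im array is above every vehicle array of its genotype. The difference was 0.47 ± 0.16 in Nrf2 null livers (1.39-fold, adjusted p = 0.106) and 0.83 ± 0.16 in wild type livers (1.78-fold, adjusted p = 0.0216). Without wild type vehicle replicate 3 the wild type difference was 1.02 (adjusted p = 0.000482), and the Nrf2 null difference also passed the test (adjusted p = 0.0271).

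Dnajb6 encodes a J protein that holds back protein aggregation. It read 10.20, 10.38 and 10.39 in Nrf2 null CDDO-Im livers, against 9.62, 9.77 and 9.82 in Nrf2 null vehicle livers. It read 10.08, 10.57 and 10.21 in wild type CDDO-Im livers, against 9.99, 10.02 and 10.19 in wild type vehicle livers. The treatments are apart in the Nrf2 null and overlap in wild type. The difference was 0.59 ± 0.12 in Nrf2 null livers (1.5-fold, adjusted p = 0.0171) and 0.22 ± 0.12 in wild type livers (1.16-fold, adjusted p = 0.479), or 0.28 in wild type livers without wild type vehicle replicate 3 (adjusted p = 0.272). Dnajb6 is the only J protein with a 3-unit element in its windows. The window shown lies at chr5:29735648-29735947 on the plus strand, and the capitals mark the element at bases -46 to -34.
Dnajb6: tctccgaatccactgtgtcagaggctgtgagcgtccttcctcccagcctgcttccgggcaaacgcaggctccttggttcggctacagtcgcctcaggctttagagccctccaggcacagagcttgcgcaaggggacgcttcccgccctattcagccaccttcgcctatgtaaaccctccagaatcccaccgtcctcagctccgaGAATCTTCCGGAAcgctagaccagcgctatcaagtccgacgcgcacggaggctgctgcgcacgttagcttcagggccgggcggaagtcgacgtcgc
Dnajb4, another J protein, differed by -0.16 in Nrf2 null and -0.13 in wild type livers, and Bag3, an exchange factor that steers HSP70 clients to autophagy, by -0.20 ± 0.22 in Nrf2 null and 0.45 ± 0.22 in wild type livers. The wild type values were -0.14 for Dnajb4 and 0.59 for Bag3 without wild type vehicle replicate 3. Neither passed the test in any genotype, with or without that array, and their treatment groups overlap.

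The small heat shock proteins did not move as a class. Hspb1 encodes HSP25, the mouse counterpart of HSP27. It read 8.16, 8.29 and 8.16 in Nrf2 null CDDO-Im livers, against 8.16, 8.31 and 7.95 in Nrf2 null vehicle livers. It read 10.43, 9.63 and 9.49 in wild type CDDO-Im livers, against 8.19, 8.22 and 9.45 in wild type vehicle livers. The 6 Nrf2 null arrays and 2 of the wild type vehicle arrays lie close together, and the wild type CDDO-Im arrays and wild type vehicle replicate 3 lie above them. The difference was 0.07 ± 0.31 in Nrf2 null livers (1.05-fold, adjusted p = 0.945) and 1.23 ± 0.31 in wild type livers (2.34-fold, adjusted p = 0.0725). Leaving out wild type vehicle replicate 3 gave a wild type difference of 1.65 (3.13-fold, adjusted p = 0.000555).

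Hspb8, which works with Bag3, differed by -0.25 ± 0.20 in Nrf2 null and -0.10 ± 0.20 in wild type livers, or -0.27 ± 0.19 in wild type livers without wild type vehicle replicate 3 (adjusted p = 0.532). Cryab, which encodes alpha-B crystallin, was below the array median on all 12 arrays and differed by -0.03 in Nrf2 null and -0.08 in wild type livers, or -0.09 without that array. The dim signal of Cryab leaves little room to measure a change.

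The mitochondrial chaperonin pair, Hspd1 for HSP60 and Hspe1 for its lid HSP10, had no called difference between treatments. Hspe1 read 11.53, 11.27 and 11.46 in Nrf2 null CDDO-Im livers, against 10.64, 11.24 and 11.27 in Nrf2 null vehicle livers. It read 12.19, 12.06 and 11.97 in wild type CDDO-Im livers, against 11.48, 11.59 and 12.03 in wild type vehicle livers. Both genotypes overlap between treatments, in the wild type only through vehicle replicate 3. The difference was 0.37 ± 0.18 in Nrf2 null livers (adjusted p = 0.268) and 0.37 ± 0.18 in wild type livers (adjusted p = 0.382), where it was 0.54 without that array (adjusted p = 0.0807). Hspd1 differed by 0.20 ± 0.14 in Nrf2 null and 0.11 ± 0.14 in wild type livers, or 0.14 without that array. The pair is transcribed in opposite directions from a shared promoter, shown here as the window of Hspe1 because its element serves as the example of one beside genes that did not pass the test. The window lies at chr1:55087898-55088197 on the plus strand, and the capitals mark 2 overlapping 3-unit elements at bases -89 to -72.
Hspe1: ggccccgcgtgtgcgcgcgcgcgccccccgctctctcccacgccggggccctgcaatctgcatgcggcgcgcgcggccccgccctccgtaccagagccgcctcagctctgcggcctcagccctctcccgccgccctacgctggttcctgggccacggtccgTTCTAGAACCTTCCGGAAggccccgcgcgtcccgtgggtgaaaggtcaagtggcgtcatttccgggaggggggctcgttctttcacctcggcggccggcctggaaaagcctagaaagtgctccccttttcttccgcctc

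The 8 CCT subunits gave small differences, nearly all upward. In Nrf2 null livers Cct4 and Cct8 rose, 7 of 8 differences were above 0, and the median was 0.27, with a range of -0.23 for Cct3 to 0.66 for Cct4. In wild type livers Cct6a alone rose, all 8 differences were above 0, and the median was 0.34, with a range of 0.15 for Cct8 to 0.64 for Cct6a. Of the 16 differences 3 passed the test. The calls were 25% of the 8 genes in Nrf2 null livers and 12.5% in wild type livers. The shares of all genes called higher were 3.58% and 0.978%.

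Cct4 read 10.50, 10.57 and 10.71 in Nrf2 null CDDO-Im livers, against 9.72, 9.99 and 10.08 in Nrf2 null vehicle livers. It read 10.85, 10.82 and 10.69 in wild type CDDO-Im livers, against 10.19, 10.19 and 10.52 in wild type vehicle livers. The groups are apart in both genotypes. The difference was 0.66 ± 0.11 in Nrf2 null livers (1.58-fold, adjusted p = 0.011) and 0.48 ± 0.11 in wild type livers (1.40-fold, adjusted p = 0.0589), or 0.59 in wild type livers without wild type vehicle replicate 3 (adjusted p = 0.0061).

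Cct6a read 11.23, 11.27 and 11.32 in Nrf2 null CDDO-Im livers, against 10.89, 11.07 and 10.79 in Nrf2 null vehicle livers. It read 11.64, 11.57 and 11.61 in wild type CDDO-Im livers, against 10.84, 10.81 and 11.25 in wild type vehicle livers. Again no CDDO-Im array falls among the vehicle arrays of its genotype. The difference was 0.36 ± 0.11 in Nrf2 null livers (1.28-fold, adjusted p = 0.0879) and 0.64 ± 0.11 in wild type livers (1.56-fold, adjusted p = 0.0145), or 0.78 in wild type livers without wild type vehicle replicate 3 (adjusted p = 0.000193). Cct8 differed by 0.43 ± 0.10 in Nrf2 null livers (1.34-fold, adjusted p = 0.0334) and by 0.15 ± 0.10 in wild type livers (adjusted p = 0.601), or 0.24 without that array (adjusted p = 0.216).

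Leaving out wild type vehicle replicate 3 brought the CCT calls to 4 in Nrf2 null livers, with Cct2 and Cct6a added, and to 6 in wild type livers, with Tcp1, Cct2, Cct4, Cct5 and Cct7 added. These were 50% and 75% of the CCT genes, where 4.95% and 2.77% of all genes were called higher. In wild type livers the CCT median was then 0.43. Hsbp1, whose product binds HSF1 trimers, differed by 0.20 ± 0.10 in Nrf2 null and -0.01 ± 0.10 in wild type livers and passed the test in neither, the wild type value being -0.004 without that array.

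**Figure D4:**
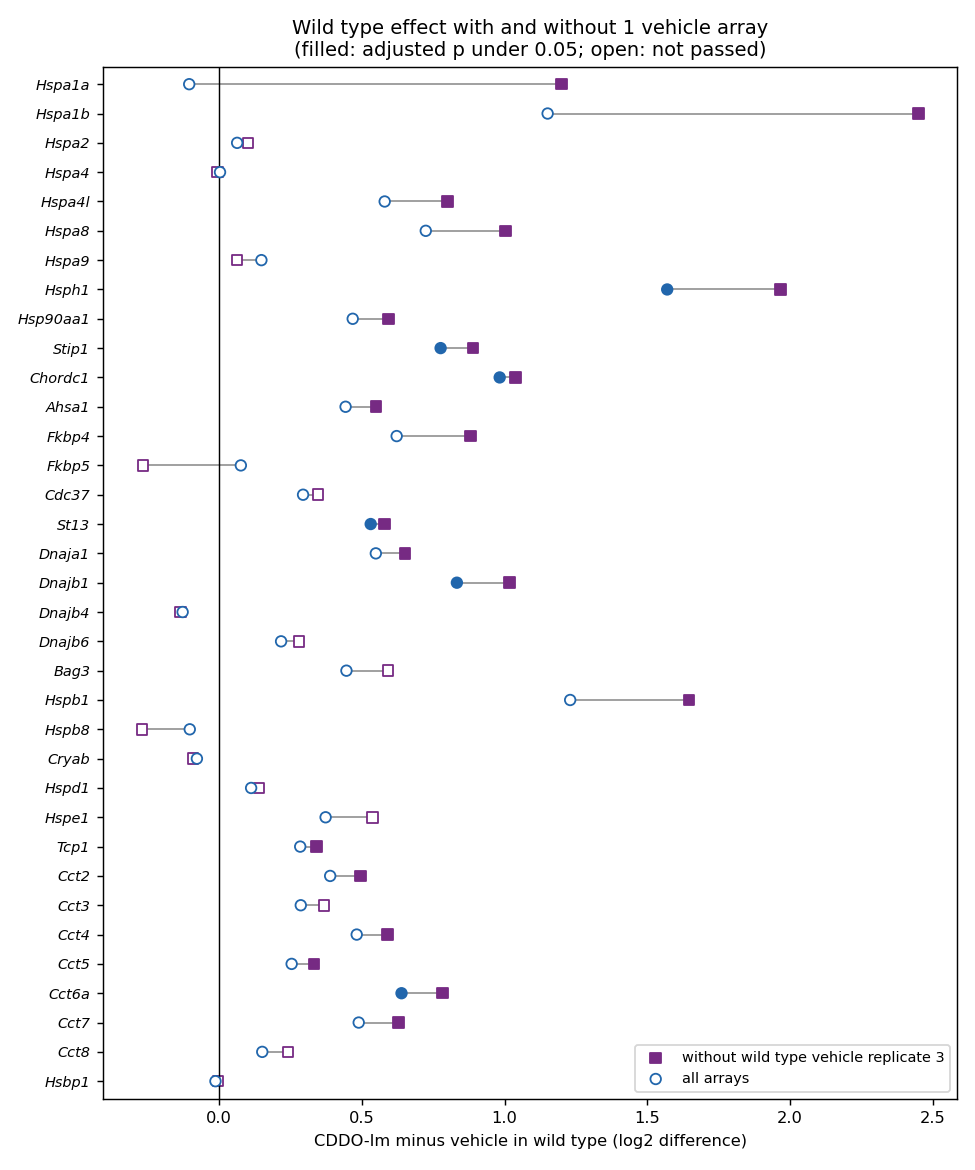
Log2 difference between wild type CDDO-Im and wild type vehicle livers for each gene, with all arrays (circles) and without wild type vehicle replicate 3 (squares), filled where the adjusted p was under 0.05. Most squares lie to the right of their circle, and Hspa1a moves from the left of 0 to the right of it.

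Between genotypes under CDDO-Im, 3 of 35 genes were lower in Nrf2 null livers, or 8.57%, where 0.824% of all genes were called lower: Hsp90aa1, Hspb1 and Hspa4l. Hsp90aa1 averaged 9.82 ± 0.26 in Nrf2 null and 10.99 ± 0.12 in wild type CDDO-Im livers (SD, n = 3 each), a log2 difference of -1.18 ± 0.14 (0.443-fold, adjusted p = 0.00113). Hspb1 averaged 8.20 ± 0.07 in Nrf2 null and 9.85 ± 0.51 in wild type CDDO-Im livers, a difference of -1.65 ± 0.31 (0.320-fold, adjusted p = 0.0212). Hspa4l averaged 6.46 ± 0.09 in Nrf2 null and 7.33 ± 0.16 in wild type CDDO-Im livers, a difference of -0.87 ± 0.16 (0.546-fold, adjusted p = 0.0181).

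None of these groups overlap. The Hsp90aa1 call was kept whichever 1 of the 12 arrays was left out, with a highest adjusted p of 0.00826, whereas the Hspb1 and Hspa4l calls were each lost without any of the 3 Nrf2 null CDDO-Im arrays, and without wild type CDDO-Im replicate 1 or 2, which left 1 call each time, where 0.528% to 0.632% of all genes were called lower. In all, 29 of 35 differences were below 0, with a median of -0.31 against 0.01 for all genes. Every Nrf2 null array lay below every wild type array for 18 genes, where 7.82% of all genes did so. Without wild type vehicle replicate 3, which enters this comparison through the estimate of spread alone, 7 genes were called lower, or 20%, where 1.43% of all genes were: Hspa1a, Dnajb1, Hspe1 and Cct7 joined the 3 above. The direction was not particular to these genes. Of 15 endoplasmic reticulum chaperones, all 15 differences were below 0 with all arrays, with a median of -0.27 and 0 called lower. For 7 of them every Nrf2 null array lay below every wild type array.

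The vehicle comparison gave no call. Of the 35 genes 0 passed limma's test between Nrf2 null and wild type vehicle livers, where 0.39% of all genes were called in either direction, and 13 had an unadjusted p under 0.05, or 37.1%, where 13.2% of all genes did. Differences were below 0 for 28 of 35, with a median of -0.26 against 0.02 for all genes, and 12 genes had every Nrf2 null array below every wild type array, where 8.49% of all genes did. Without wild type vehicle replicate 3 the count of calls was again 0, with 9 at an unadjusted p under 0.05, or 25.7%, where 15.2% of all genes were. The median was then -0.09, with 25 of 35 below 0. The largest differences, of Hspa1b and Hspa1a, were -1.74 and -1.28 with all arrays and -0.44 and 0.03 without that one. Hspa8 and Cct6a turned to 0.09, against -0.19 and -0.05 with all arrays. Kupffer cell markers ran the same way with all arrays, with a median of -0.36 and 8 of 8 below 0. So did acinar markers, with a median of -0.48 and 13 of 13 below 0. Both medians include wild type vehicle replicate 3. By array, the acinar median was 6.03, 6.01 and 10.59 in wild type vehicle livers. It was 6.22, 8.89 and 6.06 in Nrf2 null vehicle livers, so the acinar direction rests on that replicate. Kupffer cell markers were instead low on it, with a median gap of -0.57 to the other wild type vehicle arrays. Stellate cell and fibroblast markers also ran this way, with a median of -0.30 and 6 of 8 below 0. Of these, 4 had an unadjusted p under 0.05 from limma, or 50%. On wild type vehicle replicate 3, 7 of the 8 lay above both other wild type vehicle arrays. The remaining marker lists went either way. None of these Kupffer cell, acinar, stellate cell and fibroblast markers was called, and their part was not tested.

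The lowest adjusted p values in this comparison belonged to St13 and Hsp90aa1. St13 averaged 10.19 ± 0.16 in Nrf2 null and 10.68 ± 0.09 in wild type vehicle livers (SD, n = 3 each), a difference of -0.50 ± 0.11 (adjusted p = 0.0856), or -0.45 without wild type vehicle replicate 3 (adjusted p = 0.11). Hsp90aa1 averaged 9.91 ± 0.11 in Nrf2 null and 10.52 ± 0.24 in wild type vehicle livers, a difference of -0.61 ± 0.14 (adjusted p = 0.0998), or -0.49 without that array (adjusted p = 0.121). Of the 7 genes above 0, Fkbp5 was at 0.85 ± 0.34 (adjusted p = 0.306), or 0.51 without that array (adjusted p = 0.469), and Hspb8, Cct3, Hspa2, Bag3, Stip1 and Cryab lay between 0.03 and 0.39. Since this comparison and the wild type treatment comparison share the wild type vehicle arrays, their values are not independent.

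**Figure D5:**
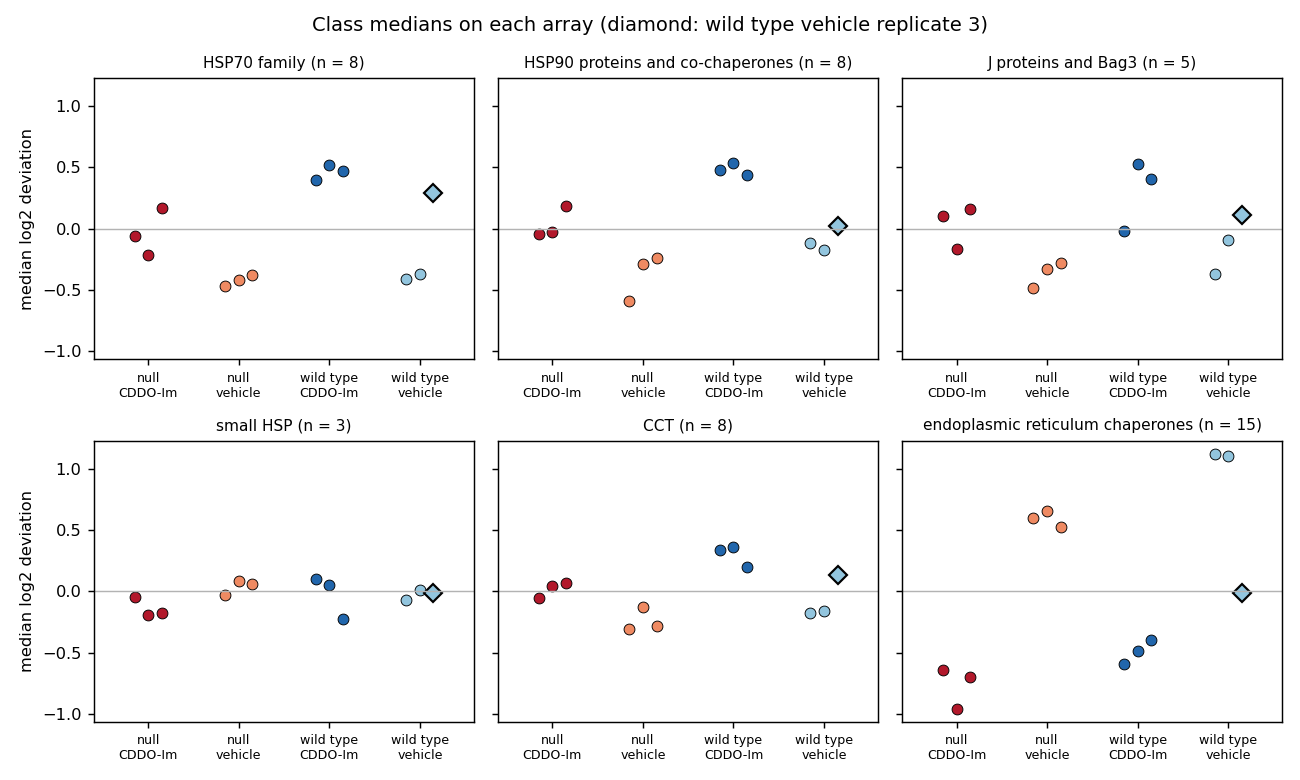
Median over the genes of a class of the log2 deviation from each gene's mean over 12 arrays, for each array, with wild type vehicle replicate 3 as a diamond. HSP70, HSP90 and CCT medians are higher on all CDDO-Im arrays than on the vehicle arrays of their genotype, and endoplasmic reticulum chaperones run the other way, at -0.96 to -0.64 in Nrf2 null CDDO-Im against 0.52 to 0.65 in Nrf2 null vehicle livers.

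Whether the response differed between the genotypes was tested as the wild type difference minus the Nrf2 null difference. Of the 35 genes 0 passed limma's test, where 0.137% of all genes were called in either direction, 6 had an unadjusted p under 0.05, or 17.1%, where 7.1% of all genes did, and the median was 0.06 against 0.01 for all genes. Hspb1 had the largest interaction, at 1.16 ± 0.44 log2 units (2.24-fold, adjusted p = 0.597), and without wild type vehicle replicate 3 it was 1.58 (2.99-fold, adjusted p = 0.0572). Hsp90aa1 was at 0.56 ± 0.20 (adjusted p = 0.557), Cct3 at 0.51 ± 0.17 (adjusted p = 0.461), Hspa4l at 0.50 ± 0.23 (adjusted p = 0.695) and Stip1 at 0.46 ± 0.18 (adjusted p = 0.614). Dnajb6 had a larger difference in the Nrf2 null, with an interaction of -0.37 ± 0.17 (adjusted p = 0.7). Hspa8, Cdc37 and Hspe1 were within 0.01 of equal in the genotypes, with standard errors of 0.26, 0.16 and 0.25. The interactions without wild type vehicle replicate 3 were 0.69 for Hsp90aa1, 0.60 for Cct3, 0.72 for Hspa4l, 0.57 for Stip1, -0.31 for Dnajb6, 0.29 for Hspa8, 0.05 for Cdc37 and 0.16 for Hspe1. A gene called in 1 genotype alone is thus not shown to differ between them. Without wild type vehicle replicate 3 the count of calls was again 0, with 10 at an unadjusted p under 0.05, or 28.6%, where 8.33% of all genes were, and the median was 0.19. Hspa1b and Hspa1a turned, to 0.52 and 0.79 without that array, against -0.78 and -0.52 with all arrays.

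Chaperones of the endoplasmic reticulum, which fold secreted proteins, went in the opposite direction to the cytosolic ones with CDDO-Im. Of 15 measured, 14 were lower with CDDO-Im in Nrf2 null livers, where 2.32% of all genes were called lower, and 11 were lower in wild type livers, where 0.846% were. The median difference was -1.32 in Nrf2 null livers, against -0.01 for all genes, and -1.27 in wild type livers, against 0.01 for all genes. All 15 were lower in wild type livers without wild type vehicle replicate 3, where 4.84% of all genes were, with a median of -1.60. Hyou1, an HSP110-type protein of that compartment, differed by -1.65 ± 0.21 in Nrf2 null livers (adjusted p = 0.00433) and -1.33 ± 0.21 in wild type livers (adjusted p = 0.00777), or -1.60 without that array. Sdf2l1, a partner of the reticulum's HSP70, differed by -2.86 ± 0.40 in Nrf2 null livers (adjusted p = 0.0063) and -2.23 ± 0.40 in wild type livers (adjusted p = 0.0164), or -2.79 without that array.

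Other chaperone lists held few calls. Among 29 further co-chaperones and partners of HSP70 or HSP90, 1 was called higher in Nrf2 null livers, or 3.45%, and 2 lower, or 6.9%, beside 3.58% and 2.32% of all genes, and 0 were called in wild type livers by limma, with 7 at an unadjusted p under 0.05, or 24.1%, where 13.6% of all genes were. Without wild type vehicle replicate 3, 1 was called higher and 2 lower in wild type livers, or 3.45% and 6.9%, beside 2.77% and 4.84% of all genes. Bag4, an HSP70 exchange factor, rose in Nrf2 null livers by 0.43 ± 0.11 (adjusted p = 0.0371). In the same livers Rpap3, an HSP90 co-chaperone for complex assembly, fell by 2.02 on the log2 scale (adjusted p = 0.0359) and Hspa13, an HSP70 relative of the microsomes, fell by 1.42 (adjusted p = 0.017). Of 9 measured genes on a list of HSFs, HSF1 regulators and other genes, 1 was called higher in each genotype, or 11.1%. The shares of all genes were 3.58% in Nrf2 null and 0.978% in wild type livers. Hsf2, a second heat shock factor, was called in Nrf2 null livers at 0.33 ± 0.07 (adjusted p = 0.0211), but its means there, 5.75 with CDDO-Im and 5.43 with vehicle, lay below every array median, so the size of its change is poorly measured. P4ha1, a collagen prolyl hydroxylase subunit on that list, rose in wild type livers by 0.52 ± 0.11 (adjusted p = 0.0437), or 0.54 without wild type vehicle replicate 3. Its wild type means were 6.13 with CDDO-Im and 5.61 with vehicle, the latter below every array median. It is neither a heat shock factor nor an HSF1 regulator, so no such gene was called in wild type livers. Of 10 mitochondrial chaperones outside the list 2 were called higher in Nrf2 null livers, or 20%, the same share as among the 35 genes, and 0 in wild type livers by limma, with 1 at an unadjusted p under 0.05, or 10%, where 13.6% of all genes were. Without wild type vehicle replicate 3, 1 was called higher in wild type livers, or 10%, where 2.77% of all genes were. Timm44, of the import motor, rose by 0.48 ± 0.09 in Nrf2 null livers (adjusted p = 0.0153), as did Hscb, a J protein of iron-sulphur assembly, by 0.38 ± 0.10 (adjusted p = 0.0492). Median differences of prefoldin and CCT assembly genes, 10 measured, were -0.07 in Nrf2 null and -0.11 in wild type livers, and those of 7 other small heat shock proteins were -0.03 in both genotypes. These wild type medians were -0.21 and -0.04 without wild type vehicle replicate 3. In that fit 1 of the 10 prefoldin and assembly genes was called lower in each genotype, or 10%. The shares of all genes called lower were then 3.93% in Nrf2 null and 4.84% in wild type livers.

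Several genes had more than 1 probe set bright enough to compare. For 23 genes with at least 2 such probe sets above the array median, all probe sets gave the same sign of the CDDO-Im difference for 18 genes in Nrf2 null livers and for 20 in wild type livers. The exceptions were Dnajb4, Dnajb6, Fkbp5, Hspa4 and Hspb1 in Nrf2 null livers and Dnajb4, Dnajb6 and St13 in wild type livers. For Dnajb6 the 4 probe sets gave 0.59, 0.15, 0.51 and -0.05 in Nrf2 null livers, and the first alone was called when every probe set was tested. In that same test the 3 probe sets of Cct2 gave 0.39, 0.26 and 0.52 in wild type livers. The last was called (adjusted p = 0.0178 from limma) and the first, the one used here, was not (adjusted p = 0.0909). For St13 the 3 probe sets gave 0.72, 0.89 and 0.11 in Nrf2 null livers and 0.53, 0.72 and -0.11 in wild type livers, so its brighter probe sets moved together and the dimmest did not. The second probe set of Hspb1 gave -0.03 in Nrf2 null and 1.40 in wild type livers, against 0.07 in Nrf2 null and 1.23 in wild type livers for the first. For Hspa4l a second probe set of near-equal brightness gave 0.20 in Nrf2 null and 0.23 in wild type livers. The first gave 0.08 and 0.58, so the larger wild type difference rests on that probe set. Under CDDO-Im the second averaged 6.31 in Nrf2 null and 7.05 in wild type livers, the same direction as the first.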

How the data were processed

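Total RNA of liver was labelled with biotin and hybridised to Affymetrix arrays by standard procedures, per the labels' protocols. The authors deposited log2 intensities, 1 for each probe set on each array, which RMA had made, per the submitters' processing notes; this method corrects background, normalises by quantiles and summarises probes, and its version is not given in the sources used here. Of 45101 probe sets, 64 were controls, 34945 named 1 gene, 932 several and 9160 none, by the platform annotation. Entrez Gene ids matched 34741 probe sets to RefSeq and changed 0 symbols. Deposited values were used unaltered and no gene was filtered. Each of 18193 genes was read from the brightest probe set naming it alone. limma 3.58.1 (R 4.3.3) fitted all 12 arrays at once, with a mean for each group (two-sided moderated tests, Benjamini-Hochberg over all genes, threshold 0.05) and checked on simulated data. The number of arrays limits the precision.

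The members, classes and related lists were chosen with earlier results of these data known. All members could be named, and of each related list at most the 4 called genes with the smallest adjusted p per comparison. Replicate numbers were not used to pair arrays in the main fit, since the labels do not say that they do. Promoter windows came from RefSeq (GRCm38.p6), which gave none here for Cct4, Cryab, Hsp90aa1, Hspa8, Hspa9 and St13. Alternatives comprised 10 settings and leaving out each array.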

Additional observations from a re-analysis of the deposited data

How the results depend on the processing

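With 3 arrays per group, most calls sit near the threshold, and an adjusted p under 0.01 left 1 called gene each in the treatment comparison in Nrf2 null livers, the treatment comparison in wild type livers and the genotype comparison under CDDO-Im. At that threshold 0.33% of all genes were called higher in Nrf2 null and 0.418% in wild type livers, and 0.478% were called lower between genotypes. Leaving out each array in turn gave 1 to 12 calls in Nrf2 null livers, 0 to 20 in wild type livers, 1 to 7 between genotypes under CDDO-Im, and 0 for both the vehicle comparison and the interaction. In the wild type comparison the count was 1 with the compared arrays alone, 20 with array weights, and 19 without wild type vehicle replicate 3 and Nrf2 null vehicle replicate 2 together, where 0.434%, 4.48% and 2.54% of all genes were called higher, against 0.978% as reported. In the Nrf2 null comparison the mean of a gene's probe sets gave 3, beside 3.09% of all genes. Between genotypes under CDDO-Im the compared arrays alone gave 5 and leaving out both those arrays gave 7, beside 1.15% and 1.28% of all genes called lower. Array weights gave 3 calls, all lower in Nrf2 null, between vehicle groups, where 8.12% of all genes were called and 5.51% were lower, so this count is near the background. Fits of the compared arrays alone or with arrays left out hold fewer arrays; the cause was otherwise not tested. Hspa1a in wild type livers was at -0.11 with all arrays, at 1.199 without wild type vehicle replicate 3, which is also its value without both arrays, and at -0.774 without wild type vehicle replicate 2, the range over arrays left out in turn. Same-numbered arrays of different groups had correlations of their deviations from -0.30 to 0.28 over 18 pairs, and differently numbered arrays from -0.40 to 0.47 over 36. The labels do not say whether the numbers pair the arrays. These correlations cannot decide it, since the deviations of 3 arrays from their group mean sum to 0. With the number as a replicate block the counts were 9 in Nrf2 null livers, 8 in wild type livers, 4 between genotypes under CDDO-Im, and 0 for the vehicle comparison and the interaction. In the same order, 5.5%, 1.78%, 1.27%, 0.44% and 0.11% of all genes were called in either direction. Of the single-gene values under alternatives, 3507 kept direction and side of the threshold, 75 gained a call, 94 lost one and 2, both Hspa1a, turned with a call. A further 122, of 24 genes, changed sign with no call either way, and for 103 of these both values were within 0.2 of 0; 12 of the 122 came from leaving out wild type vehicle replicate 3.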

Other observations

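Other chaperones of the endoplasmic reticulum with the smallest adjusted p were Manf, a secreted stress-induced factor of that compartment, at a log2 difference of -2.61 ± 0.35 in Nrf2 null livers (SE, n = 3 each, adjusted p = 0.0054 from limma), and Pdia3, a disulphide isomerase, at -1.12 ± 0.19 in Nrf2 null livers (adjusted p = 0.011) and -1.096 ± 0.19 in wild type livers (adjusted p = 0.0137), or -1.39 without wild type vehicle replicate 3. Pdia6, a further isomerase, was at -1.46 ± 0.28 in wild type livers (adjusted p = 0.022), or -1.88 without that array. Bag4 averaged 8.48 in Nrf2 null and 7.84 in wild type livers under CDDO-Im, a difference of 0.64 ± 0.11 (adjusted p = 0.00996). Nudc, a co-chaperone of HSP90, averaged 9.44 in Nrf2 null and 9.86 in wild type livers under CDDO-Im, a difference of -0.42 ± 0.09 (adjusted p = 0.0316). Glucocorticoid receptor targets beside Fkbp5, 10 measured, had median CDDO-Im differences of 0.05 in Nrf2 null and -0.13 in wild type livers, and a median interaction of -0.25; without wild type vehicle replicate 3 the wild type median was -0.16 and the interaction -0.28.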
